A study of Mus musculus with 24 samples.

Results

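The morphine response of mice without the vitamin D receptor was compared between the 2 ends of the mesolimbic pathway, the ventral tegmental area (VTA) of the midbrain and the nucleus accumbens. The comparison used the 12 Vdr-/- libraries of the series' 24, chosen by genotype and not by any measured value: 6 mice with 1 library from each region, 3 mice given PBS (numbered 7, 8 and 9) and 3 given morphine sulfate at 5 mg/kg (numbered 2.0, 2.1 and 2.2), both by intraperitoneal injection. All 6 mice were on a C57BL/6 background and carried the Vdr deletion constitutively, so the PBS mice lacked the receptor too. Per the study's methods, its Vdr-/- mice grew up on calcium-enriched food. The ages of these 6 mice are not given in the sources used here. The tissue was bilateral micropunches of frozen brain, placed by landmarks to take in both core and shell of the accumbens and, in the midbrain, tissue near the ventral surface on either side of the midline, so a punch can also hold what borders these nuclei. The study's account of the sequencing gives 1 interval after either injection, while its account of micropunch collection gives the saline mice a shorter one. Both regions of a mouse carry the same mouse number in the labels, so the central quantity was the within-mouse region difference: log2 of the accumbens value minus log2 of the VTA value in 1 mouse. The mean of that difference in the morphine mice minus its mean in the PBS mice equals the morphine effect in the accumbens minus the morphine effect in the VTA, and is called the region difference below. It is positive where morphine was followed by a higher value in the accumbens relative to the VTA.

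Dopamine neurons of the VTA project to the nucleus accumbens, where most neurons are medium spiny neurons that carry either the D1 or the D2 dopamine receptor and release GABA. Morphine acts on the μ-opioid receptor, which lowers cAMP through inhibitory G proteins, and in the VTA it quiets GABA interneurons that otherwise hold dopamine neurons back. Dopamine reaching D1 receptors in turn raises cAMP in the accumbens and switches on immediate early genes such as Fos and Arc, transcription factors and synaptic proteins whose mRNA appears within minutes of activity.

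The accumbens libraries held 9328615 to 18902995 reads on genes (median 17537863) and the VTA libraries 12421680 to 30184172 (median 16746026), and values are given as normalised read counts, that is, reads divided by a size factor of the library estimated over the 6 libraries of its region. Vdr itself held 0 to 10 reads per library in the accumbens and 3 to 17 in the VTA of Vdr-/- mice, against 1 to 14 and 2 to 17 in wild-type mice, so it was too low to be tested and its reads do not check the genotype. Region markers followed the labels. The summed value of 28 medium spiny neuron genes was 112931 to 193351 in the accumbens libraries and 24543 to 26488 in those of the VTA, and the VTA held the dopamine neuron genes, among them Th (tyrosine hydroxylase), at 1028 to 5649 against 85.2 to 149 in the accumbens. The VTA punches varied in these genes: the sum of 22 dopamine neuron genes was 15008 to 56401 with PBS and 16456 to 31240.0 with morphine, highest in mouse 8 and lowest in mouse 9, both given PBS. One deposited VTA table leaves out mouse 8, so the counts below are also given without that mouse. In such bulk tissue, fewer cells of a type and less RNA per cell cannot be told apart.

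Morphine was followed by changes in more genes in the nucleus accumbens than in the VTA. In the accumbens 3018 of 15820 genes changed at an adjusted p under 0.05 (limma on log2 of the value plus 1, Benjamini-Hochberg; 19.1%), 1573 higher (9.94%) and 1445 lower (9.13%). In the VTA 1242 of 16194 genes changed (7.67%), 579 higher (3.58%) and 663 lower (4.09%). A larger count in 1 region is no test of a difference between regions, which the within-mouse comparison gives. It passed the same threshold in 233 of the 15332 genes whose mean reached 10 in the VTA and in the accumbens (1.52%), 126 of them positive (0.822%) and 107 negative (0.698%). The 3 morphine mice and the 3 PBS mice did not overlap in the within-mouse difference for any of these 233 genes, and for 24.1% of all genes tested. The median region difference of the 233 genes was 0.58 among the positive and -0.58 among the negative, and 88 of the positive and 98 of the negative had morphine effects of opposite sign in the 2 regions. A call on the difference between 2 effects favours opposite signs, so these counts do not by themselves show reversals. Of the 233 genes, 21 had both effects called in opposite directions.

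The number of called genes depended on single mice. Leaving out mouse 8 raised the count from 233 to 760 (438 positive and 322 negative) and kept 229 of the 233, while it was 15 when PBS mouse 7 was dropped, 28 for mouse 9, 20 for morphine mouse 2.0 and 0 for each of mice 2.1 and 2.2, where limma gave 2156 and 2133 genes at an unadjusted p under 0.05. The VTA count was likewise 515 without mouse 2.0, 140 without mouse 2.2, 593 without mouse 9, 1666 without mouse 8 and 0 without mouse 2.1 or 7 (3404 and 3374 genes at an unadjusted p under 0.05). In the accumbens it was 1633 without mouse 2.1, 1965 without mouse 2.2, 1566 without mouse 9 and 2135 to 3133 without any other mouse. An exact permutation test of a single gene, 3 mice against 3, cannot give a two-sided p below 0.1, so calls rest on the model fitted across all genes.

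Sorted by these tests, 505 of the 15332 genes were shared, that is, called in both regions in the same direction, 298 higher and 207 lower with morphine. They make up 17.1% of the 2953 accumbens calls and 41.3% of the 1224 VTA calls among genes tested in both regions. Another 22 genes were opposite, called in both regions in opposite directions, and the region difference itself passed the threshold in 21 of them. Region-specific genes, called in 1 region only and with a called region difference, numbered 137 in the accumbens (76 with a positive and 61 with a negative difference) and 56 in the VTA (33 and 23). The remaining 15 called differences had no call in either region. A far larger group, 2289 genes called in the accumbens and 641 called in the VTA, passed in 1 region without a called difference, so their effects were not shown to differ between regions. The classes moved with the same mice: the shared genes numbered 198 without mouse 2.0, 0 without mouse 2.1 or 7, 72 without mouse 2.2 and 204 without mouse 9, and without mouse 8 there were 77 opposite, 395 accumbens-specific and 213 VTA-specific genes.

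**Figure D1:**
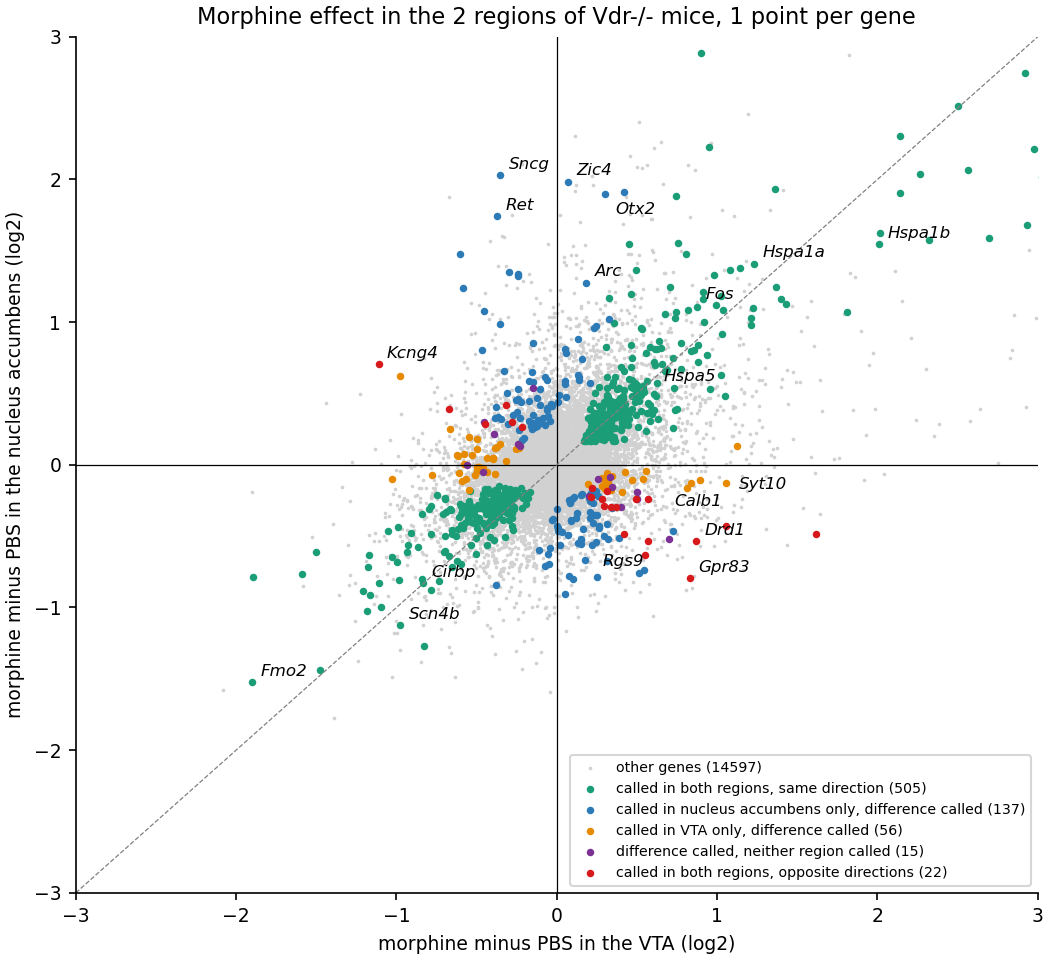
Morphine minus PBS on the log2 scale in the VTA (x axis) and in the nucleus accumbens (y axis), 1 point for each of the 15332 genes tested in both regions, with the dashed line marking equal effects and 21 genes beyond 3 left out of the frame. Shared genes lie along the dashed line, with Fmo2 at the lower left and Hspa1a and Hspa1b at the upper right, whereas Drd1, Rgs9 and Gpr83 lie below the accumbens axis and right of the VTA axis, and Kcng4 in the area facing them across the origin.

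Genes that fell in the accumbens and rose in the VTA included signaling genes of medium spiny neurons. Drd1 (chromosome 13), the D1 dopamine receptor, had accumbens values of 2808, 2662 and 2868 with PBS and 2063, 1800.0 and 1891 with morphine, and VTA values of 47.5, 61.5 and 62.8 with PBS and 101, 112 and 102 with morphine. The groups did not overlap in either region. Morphine was followed by a change of -0.54 ± 0.06, adjusted p = 0.000249, in the accumbens and 0.87 ± 0.15, adjusted p = 0.0215, in the VTA (log2 ± SE), a region difference of -1.41 ± 0.14, adjusted p = 0.0111 (limma), which ran from -1.49 to -1.27 when each mouse in turn was left out and was called in 4 of the 6 such fits. Within each mouse, the accumbens exceeded the VTA by 5.86, 5.41 and 5.49 with PBS and 4.34, 3.99 and 4.21 with morphine on the log2 scale. The VTA level of Drd1 was low: it did not exceed 112 in any library.

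Rgs9, which speeds the shut-off of inhibitory G proteins in striatal neurons, followed the same course, with 6058, 6072 and 6613 with PBS and 4724, 4141 and 4104 with morphine in the accumbens and 424, 418 and 489 with PBS and 622, 663 and 689 with morphine in the VTA. Its region difference was -1.10 ± 0.10, adjusted p = 0.0111. Gpr83, a G protein-coupled receptor, held 1916, 2500.4 and 2436 with PBS and 1337, 1287 and 1299 with morphine in the accumbens. In the VTA it held 296, 246 and 369 with PBS and 529, 516 and 558 with morphine, so that it was lower in every morphine mouse in the accumbens and higher in every morphine mouse in the VTA (region difference -1.63 ± 0.16, adjusted p = 0.0111). Ngef, an exchange factor for small GTPases, changed by -0.49 ± 0.07 and 0.42 ± 0.06 (region difference -0.91 ± 0.09, adjusted p = 0.0111), and Ryr1, a calcium release channel of the endoplasmic reticulum, by -0.63 ± 0.08 and 0.55 ± 0.12 (-1.19 ± 0.15, adjusted p = 0.0216). Rprm, a gene linked to cell cycle arrest, stood at a similar level in both regions with PBS and separated with morphine, from 144 to 184 in the accumbens and 183 to 220 in the VTA with PBS to 122 to 126 in the accumbens and 351 to 471 in the VTA with morphine (region difference -1.48 ± 0.19, adjusted p = 0.0216). Gm19410, a predicted protein-coding gene, had the largest negative difference, -2.10 ± 0.35, adjusted p = 0.0404.

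Kcng4, a modulatory subunit of voltage-gated potassium channels, rose in the accumbens and fell in the VTA, the reverse of the other 7 of the 8 opposite genes ranked by the smaller of their changes in the 2 regions. Its VTA values were 948, 879.9 and 749 with PBS and 435, 347 and 407 with morphine. The accumbens held it at 33.97, 27.2 and 26.2 with PBS and 35.9, 52.2 and 58.2 with morphine. The effects were -1.11 ± 0.11, adjusted p = 0.0116, in the VTA and 0.71 ± 0.22, adjusted p = 0.0461, in the accumbens, and the region difference was 1.82 ± 0.23, adjusted p = 0.0216. The accumbens call was lost without the filter on low values, with quantile normalisation, with DESeq2, without the variance trend and without mouse 2.1, 2.2, 8 or 9, so its place among the opposite genes rests on a narrow call. Of the 22 opposite genes, 6 rose in the accumbens and fell in the VTA, and 16 did the reverse.

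Further genes fell in the accumbens without a call in the VTA, among them genes of medium spiny neurons. Gpr6, a receptor of D2-type medium spiny neurons, held 598, 608 and 684 with PBS and 405, 352 and 376 with morphine in the accumbens, with 17.4 to 34.2 in any VTA library (region difference -1.28 ± 0.19, adjusted p = 0.0316). Its VTA effect was 0.55, not called. Rasd2 (Rhes), a small GTPase enriched in striatum, held 6913, 5493 and 7299 with PBS and 3964, 3558 and 3720.3 with morphine in the accumbens and 1176, 1111 and 1328 with PBS and 1402, 1204 and 1269 with morphine in the VTA. The accumbens groups were apart and the VTA groups overlapped, and the region difference was -0.90 ± 0.07, adjusted p = 0.0111. Rasgrp2, an exchange factor for Rap1, fell by 0.90 in the accumbens with a VTA effect of 0.05 ± 0.13, and the kinase Dclk3, the semaphorin receptor Plxnd1, the GABA-B receptor subunit Kctd8, the transcription factor Onecut2 and the secreted ligand Nxph4 had region differences of -1.19, -1.03, -0.99, -0.90 and -1.27 (adjusted p = 0.0413, 0.0413, 0.0435, 0.0436 and 0.0243, limma). For Dclk3, Plxnd1, Kctd8, Onecut2 and Nxph4 the accumbens effects were -0.47, -0.78, -0.68, -0.51 and -0.76. Their VTA effects were 0.72, 0.25, 0.32, 0.39 and 0.51, none of them called. In wild-type mice Nxph4 was lower in the accumbens than in the VTA (-2.18 on the log2 scale). Pnma1, a neuronal antigen, differed between regions by -1.22 ± 0.22, adjusted p = 0.0435, with no call in either region by itself.

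Across the list of medium spiny neuron genes, 27 of 28 fell and 1 rose in the accumbens (median -0.53 against -0.01 for all genes), the riser being Isl1. Of all genes tested, 9.94% rose and 9.13% fell in the accumbens, and 3.58% and 4.09% in the VTA. A region difference was called in 1.52%. In the VTA 2 of 27 rose, 1 fell (Scn4b) and the median was 0.07 (all genes 0.00), and the region difference was called in 9, all negative, with a median of -0.64. Those 9 were Drd1, Rgs9, Gpr6, Rasd2, Syndig1l, the phosphodiesterases Pde1b and Pde10a, the adenylyl cyclase Adcy5 and the transcription factor Foxp1. The summed value of the list in the accumbens was 164521 to 193351 with PBS and 112931 to 127802 with morphine, with no overlap. Of 37 cAMP and G protein signaling genes, 8 rose and 12 fell in the accumbens, 7 rose and 0 fell in the VTA, and 5 had a negative called difference (Rgs9, Adcy5, Pde1b, Pde10a and Pde4b, of which all but Pde4b are also on the medium spiny neuron list). In the VTA the 7 that rose included Creb1, the transcription factor that answers cAMP (0.34 ± 0.05, adjusted p = 0.0152), and Prkacb, a catalytic subunit of protein kinase A (0.21 ± 0.05, adjusted p = 0.0405).

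Opioid receptors and peptide precursors moved in the accumbens. Of 7 tested, 4 fell there and 1 rose, with a median of -0.24, and in the VTA no call was made and the median was 0.19. The shares over all genes were 9.13% lower and 9.94% higher in the accumbens, and 7.67% called in the VTA. The list's median region difference was -0.65, with no single call. Penk, the enkephalin precursor, held 10410.0, 10390.0 and 12418 with PBS and 7526, 6606 and 7029 with morphine in the accumbens and 974, 622 and 749.8 with PBS and 851, 938 and 854 with morphine in the VTA, and its region difference missed the threshold (-0.84 ± 0.17, adjusted p = 0.0539). Oprk1 and Oprd1, the κ- and δ-opioid receptors, changed by -0.69 ± 0.09 and -0.43 ± 0.08 in the accumbens and 0.08 ± 0.14 and 0.22 ± 0.10 in the VTA (region differences with adjusted p = 0.0876 and 0.0537). Oprm1, the μ-opioid receptor that binds morphine, was not called in either region (-0.07 ± 0.15 and 0.17 ± 0.18).

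**Figure D2:**
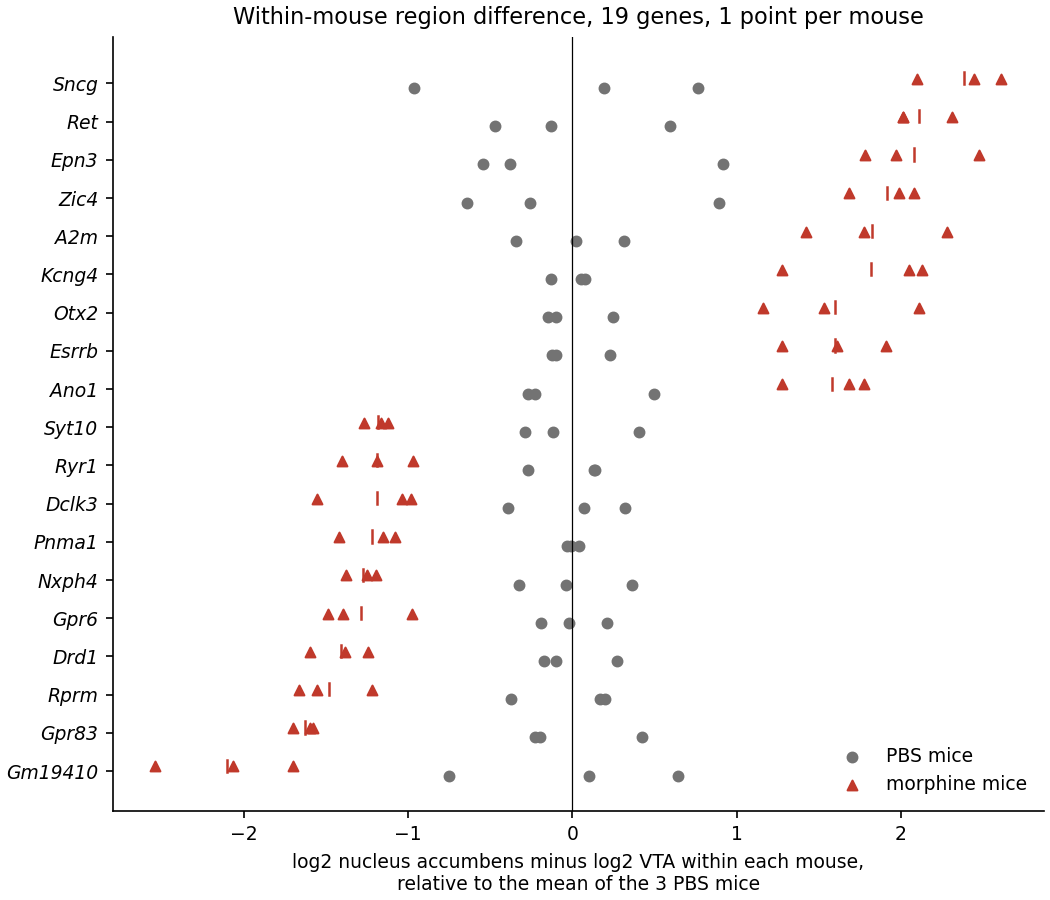
Log2 of the nucleus accumbens value minus log2 of the VTA value in each mouse, relative to the mean of the 3 PBS mice, for 9 genes with the largest positive and the 10 with the largest negative called region difference, where circles are PBS mice, triangles morphine mice and the short bars their mean. The 19 genes were chosen among called genes whose triangles do not overlap the circles, and run from Gm19410 at -2.10 to Sncg at 2.38.

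Of the 126 genes with a positive region difference, 108 had a positive effect in the accumbens and 20 a positive effect in the VTA. Choosing genes by this difference favours such a split. Ret, the receptor tyrosine kinase for GDNF-family ligands that dopamine neurons carry, held 97.7, 130.2 and 94.6 with PBS and 338, 306 and 444 with morphine in the accumbens and 4955, 8351 and 2909 with PBS and 3862, 2850.0 and 5068 with morphine in the VTA. The accumbens groups were far apart, and in the VTA they overlapped across a wide range. Its effects were 1.74 ± 0.15, adjusted p = 0.000131, in the accumbens and -0.37 ± 0.36, adjusted p = 0.544, in the VTA, a region difference of 2.11 ± 0.24, adjusted p = 0.0216 (limma). Sncg, γ-synuclein, had accumbens values of 8.49, 29.03 and 16.04 with PBS and 51.4, 65.02 and 94.7 with morphine, and a region difference of 2.38 ± 0.39, adjusted p = 0.0404, with 10 to 76 reads behind each accumbens value. Ret and Sncg were the 2 members of the dopamine neuron list that rose in the accumbens, where 3 members fell: Slc6a3, the dopamine transporter, at 22.9, 33.7 and 70.9 with PBS and 8.22, 11.98 and 21.6 with morphine, Chrnb3, a nicotinic receptor subunit, and Drd2. In the VTA none of the 22 was called by limma, with a median of -0.39, and Th held 3531, 5649 and 1028 with PBS and 1724, 1216 and 2611 with morphine. The list had 14 members tested in the accumbens. Of all genes, 9.94% rose and 9.13% fell there, and 7.67% were called in the VTA.

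Zic4 and Otx2, transcription factors of brain patterning, rose in the accumbens and were not called in the VTA. Zic4 held 67.1, 90.8 and 46.4 with PBS and 264, 233 and 296 with morphine in the accumbens and 69.8, 41.97 and 63.4 with PBS and 57.03, 62.4 and 60.2 with morphine in the VTA (region difference 1.92 ± 0.36, adjusted p = 0.0483). Otx2, a homeobox factor of midbrain and of choroid plexus, rose from 12.2 to 15.2 with PBS to 41.1 to 68.1 with morphine in the accumbens (region difference 1.60 ± 0.29, adjusted p = 0.0435). A2m, a protease inhibitor, the chloride channel Ano1 and the endocytic adaptor Epn3 had differences of 1.83, 1.58 and 2.08 (adjusted p = 0.0303, 0.0350 and 0.0485). The orphan nuclear receptor Esrrb fell in the VTA, from 108 to 169 with PBS to 62.4 to 82.3 with morphine (region difference 1.60 ± 0.26, adjusted p = 0.0394). Its accumbens effect was 0.62, not called.

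Markers of other cells and of neighbouring tissue moved with the injection in the accumbens libraries. Of 14 markers of mural cells and meninges 11 rose and 0 fell (median 1.00), and their sum was 2696 to 2962 with PBS and 3629 to 4441 with morphine. Of 8 markers of septum and basal forebrain 4 rose (median 1.05, among them Zic1 and Zic2), with sums of 3896 to 5194 with PBS and 4667 to 7871 with morphine that overlapped, and of 12 astrocyte markers 6 rose, with overlapping sums. Of 8 thalamus markers 3 rose and 1 fell (median 0.31), and their sum was 2643 to 3093 with PBS and 3735 to 3862 with morphine. In the VTA these 4 lists had 0 rises and 1 fall (Aldoc). The shares over all genes were 9.94% higher and 9.13% lower in the accumbens, and 3.58% and 4.09% in the VTA. No marker of these 4 lists was at 0 in all libraries. Their part in the region differences, and that of the falling medium spiny neuron sum, was not tested.

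**Figure D3:**
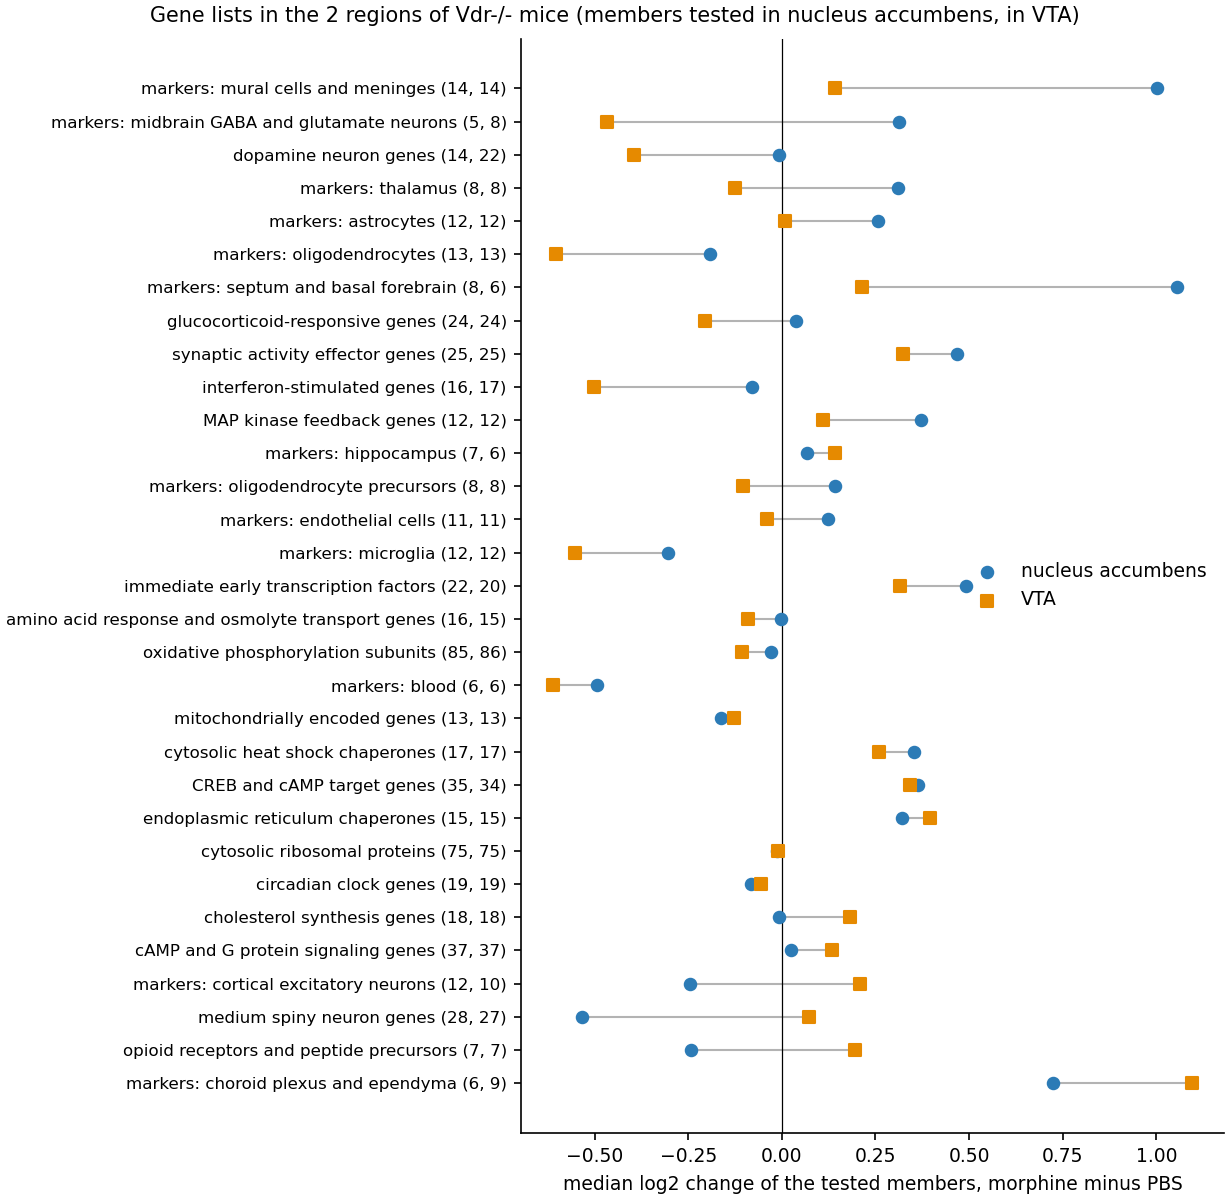
Median log2 change of the tested members of each gene list with 5 or more members tested, morphine minus PBS, in the nucleus accumbens (circles) and in the VTA (squares), with the numbers of members tested in brackets and the lists ordered by their median region difference. The squares and circles nearly coincide for ribosomal proteins, clock genes and both chaperone lists, and lie apart for medium spiny neuron genes (-0.53 and 0.07) and for markers of mural cells and meninges (1.00 and 0.14).

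Calb1 and Crhbp were among the genes that rose in the VTA alone. Calb1 (calbindin), a calcium buffer of subsets of dopamine neurons and of medium spiny neurons, held 746, 947 and 1000.4 with PBS and 1655, 1618 and 1509 with morphine in the VTA and 1848, 1990.0 and 2099.7 with PBS and 1927, 1963 and 1562 with morphine in the accumbens. It rose in every morphine mouse in the VTA while the accumbens groups overlapped, with effects of 0.84 ± 0.11, adjusted p = 0.0127, and -0.13 ± 0.08, adjusted p = 0.296 (region difference -0.97 ± 0.09, adjusted p = 0.0111). Crhbp, which binds and sequesters the stress peptide CRH, held 110.5, 85.3 and 152 with PBS and 219, 256 and 268 with morphine in the VTA (region difference -0.99 ± 0.18, adjusted p = 0.0439). Syt10 and Doc2b, calcium sensors of vesicle release, and Lrrc7, a scaffold of the postsynaptic density, rose by 1.06 ± 0.19, 0.54 ± 0.09 and 0.56 ± 0.11 in the VTA, and the ciliary gene Drc1, the actin nucleator Cobl and Fank1 by 0.81 ± 0.15, 0.40 ± 0.09 and 0.90 ± 0.18. Their accumbens effects lay between -0.19 and -0.04, none of them called.

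Among the genes that fell in the VTA alone was Gad1, which makes GABA. Its VTA values were 7848, 8483 and 6003 with PBS and 5193, 5498 and 4454 with morphine, and its accumbens values 8198, 9945 and 8808 with PBS and 9982, 10109 and 10702 with morphine, giving effects of -0.55 ± 0.13, adjusted p = 0.0477, and 0.20 ± 0.07, adjusted p = 0.0627, and a region difference of 0.75 ± 0.14, adjusted p = 0.0483. Cyp27a1, a sterol hydroxylase that also hydroxylates vitamin D, fell from 289 ± 14.1 to 184 ± 33.5 normalised reads (SD, n = 3 each), and the small GTPase Arl4d, the myelin-associated Cmtm5 and the enzymes Acsf2 and Nat8f4 fell by 1.03, 0.78, 0.50 and 0.62 on the log2 scale there. Markers of oligodendrocytes moved with the injection in the VTA: 10 of 13 fell (median -0.60), and their sum was 223877 to 232056 with PBS and 150287 to 168441 with morphine, without overlap. In the accumbens 6 of 13 fell and 1 rose (median -0.19), and all 13 region differences were positive (0.31 to 0.53, median 0.36), though none was called by limma. Over all genes 4.09% fell and 3.58% rose in the VTA, 9.13% fell and 9.94% rose in the accumbens, and 1.52% had a called difference. Of the 8 precursor markers 3 fell and 1 rose in the VTA (median -0.10), and in the accumbens 1 rose and 0 fell. Their sum was 12267 to 13978 with PBS and 9714 to 10587 with morphine in the VTA, also without overlap. Olig1, a transcription factor of the precursor cells and on their marker list, had a called region difference (0.59 ± 0.09, adjusted p = 0.0316). The part of these cells in the VTA-specific falls was not tested.

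**Figure D4:**
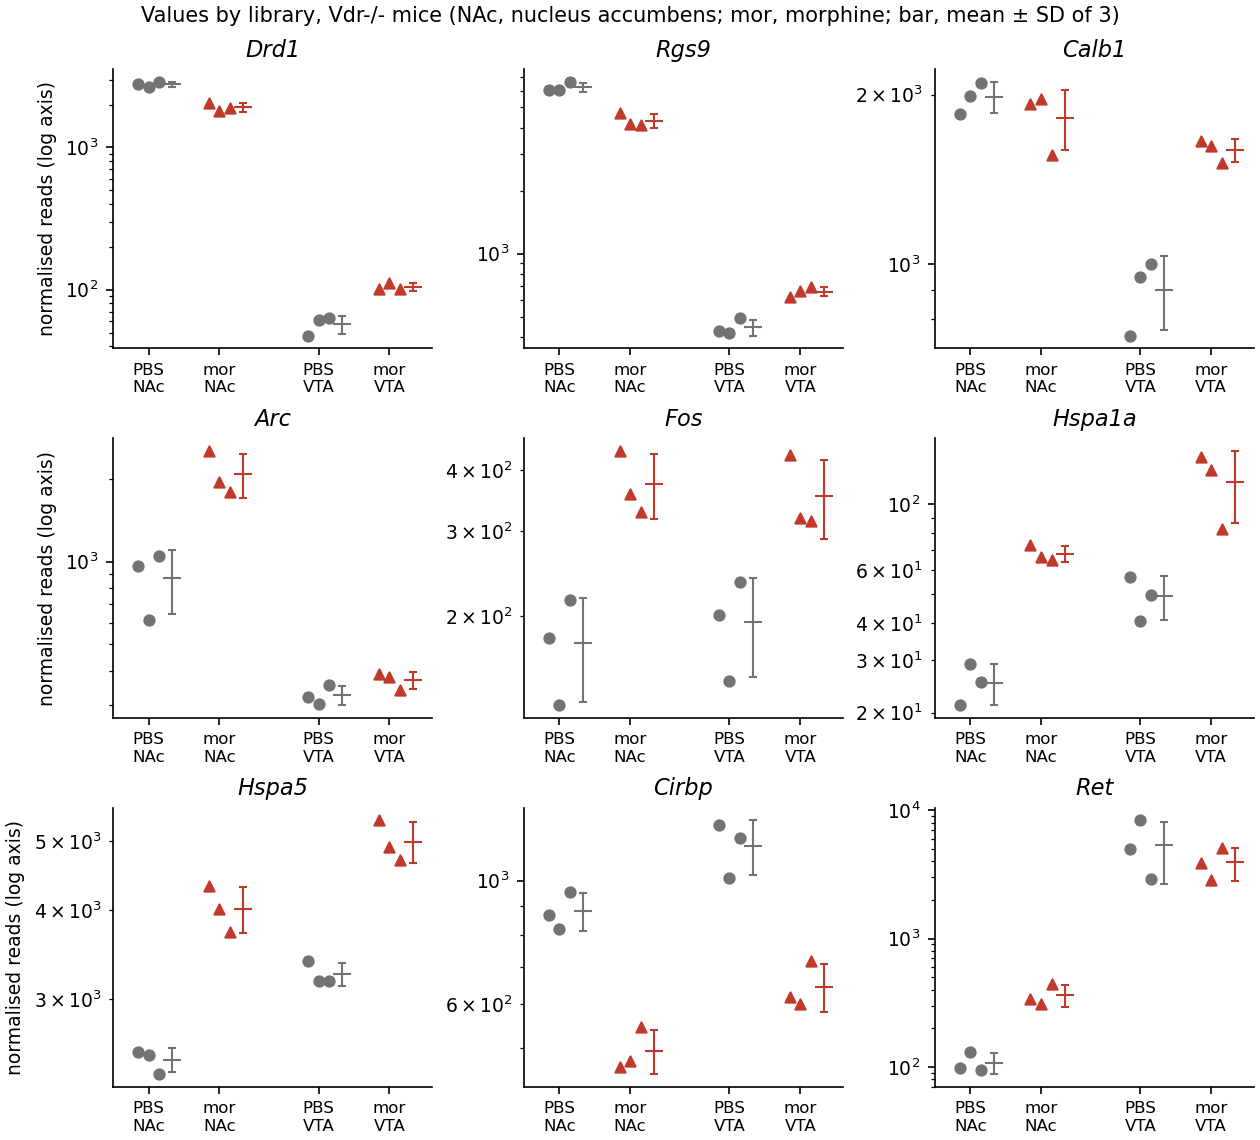
Normalised reads (log axis, a scale of its own in each panel) of 9 genes in the 12 Vdr-/- libraries, with circles for PBS mice, triangles for morphine mice and bars for the mean ± SD of 3 mice. Drd1 and Rgs9 fall in the accumbens (NAc) and rise in the VTA, Calb1 rises in the VTA alone, Arc and Ret rise in the accumbens alone, and Fos, Hspa1a, Hspa5 and Cirbp move the same way in both regions.

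Fos, Fosb and Npas4, immediate early transcription factors, rose in both regions. Of the whole list 10 of 22 rose and 0 fell in the accumbens (median 0.49), and in the VTA 3 of 20 rose and 0 fell (median 0.32). Over all genes 9.94% rose in the accumbens and 3.58% in the VTA. Fos held 180.0, 131 and 216 with PBS and 439, 357 and 329 with morphine in the accumbens and 202, 147 and 236 with PBS and 431, 319 and 314 with morphine in the VTA. All morphine values were above all PBS values in both regions, with effects of 1.11 ± 0.16, adjusted p = 0.00110, and 0.87 ± 0.19, adjusted p = 0.0373, and the region difference of 0.23 ± 0.10 was not called (adjusted p = 0.252). The effects in the accumbens and the VTA were 0.98 ± 0.13 and 1.21 ± 0.19 for Fosb, and 0.87 ± 0.14 and 0.64 ± 0.15 for Npas4. A called region difference stood in 1 member, Csrnp1, which rose in the accumbens and had a lower mean with morphine in the VTA (0.82 ± 0.16, adjusted p = 0.0496).

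Arc, whose protein internalises AMPA receptors at synapses, differed between the regions. It held 966, 611 and 1044 with PBS and 2520.4, 1939.5 and 1794 with morphine in the accumbens and 323, 304 and 355 with PBS and 391.5, 381 and 341 with morphine in the VTA. The accumbens groups were apart while the VTA groups overlapped, with effects of 1.28 ± 0.17, adjusted p = 0.000728, and 0.18 ± 0.09, adjusted p = 0.217, and a region difference of 1.09 ± 0.16, adjusted p = 0.0316 and ran from 0.91 to 1.19 as each mouse was left out. Arc was the 1 called difference among 25 synaptic activity effector genes, of which 16 rose and 2 fell in the accumbens and 5 rose and 1 fell in the VTA. Bdnf, a growth factor released with activity, was shared, at 177, 100.2 and 86.1 with PBS and 278, 318 and 234 with morphine in the accumbens and 265, 299 and 260.4 with PBS and 415, 438 and 498 with morphine in the VTA, as were Inhba (1.36 ± 0.13 and 1.08 ± 0.15), Scg2 and Pcsk1. Of the MAP kinase feedback genes 9 of 12 rose in the accumbens and 2 in the VTA, and Spry4, an inhibitor of receptor tyrosine kinase signaling, had the called difference (0.69 ± 0.11, adjusted p = 0.0372). Among all genes, 9.94% rose in the accumbens and 3.58% in the VTA, and 1.52% had a called difference.

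Chaperone genes rose in both regions. Of 17 cytosolic heat shock chaperones 12 rose in the accumbens and 9 in the VTA, with none falling, and of 15 endoplasmic reticulum chaperones 13 and 12 rose, with none falling. Over all genes 9.94% rose in the accumbens and 3.58% in the VTA, and 1.52% had a called region difference. The medians were 0.35 and 0.26 for the first list and 0.32 and 0.40 for the second, and limma called a region difference in no member of either (medians 0.05 and 0.01, limma). Hspa5 (BiP), the main chaperone of the endoplasmic reticulum, held 2531, 2511 and 2357 with PBS and 4319.9, 4012 and 3722 with morphine in the accumbens and 3396, 3181 and 3185 with PBS and 5346, 4907 and 4697 with morphine in the VTA. It was higher in every morphine mouse in both regions, by 0.70 ± 0.06, adjusted p = 0.000131, and 0.61 ± 0.06, adjusted p = 0.0116. Hspa1a and Hspa1b, the inducible cytosolic HSP70 genes, rose by 1.41 ± 0.19 and 1.55 ± 0.32 in the accumbens and 1.23 ± 0.23 and 2.01 ± 0.44 in the VTA, with 18 to 146 reads a library. They are near-identical copies, so how reads were split between them is uncertain. The cold-inducible RNA-binding proteins went down together. Cirbp held 866, 819 and 956 with PBS and 463, 475 and 547 with morphine in the accumbens and 1259.6, 1010.0 and 1192 with PBS and 619, 599.8 and 717 with morphine in the VTA, a change of -0.83 ± 0.08, adjusted p = 0.000134, and -0.84 ± 0.10, adjusted p = 0.0122, and Rbm3 fell by 0.42 and 0.60.

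The promoters of 7 shared genes are printed because they hold a motif known for their kind of gene, with capitals marking the letters searched for: the core of the cAMP response element (TGACG) in Fos, Fosb and Npas4, adjoining heat shock units (GAANNTTC or TTCNNGAA) in Hspa1a, Hspa1b and Hsph1, and the E-box (CACGTG), to which clock factors bind, in Ciart. Both strands were searched, and that core also occurs inside the full element TGACGTCA. Each run is RefSeq sequence of GRCm38.p6, 300 bases from 250 before to 50 after the annotated start, 5′ to 3′ on the strand of the gene.
Fos (chr12:85473640-85473939, plus strand): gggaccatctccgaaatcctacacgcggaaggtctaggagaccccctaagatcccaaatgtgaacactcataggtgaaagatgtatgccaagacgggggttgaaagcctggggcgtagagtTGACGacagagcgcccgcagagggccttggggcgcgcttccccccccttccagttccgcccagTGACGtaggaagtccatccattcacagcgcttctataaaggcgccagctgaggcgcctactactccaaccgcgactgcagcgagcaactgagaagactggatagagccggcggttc
Fosb (chr7:19309996-19310295, minus strand): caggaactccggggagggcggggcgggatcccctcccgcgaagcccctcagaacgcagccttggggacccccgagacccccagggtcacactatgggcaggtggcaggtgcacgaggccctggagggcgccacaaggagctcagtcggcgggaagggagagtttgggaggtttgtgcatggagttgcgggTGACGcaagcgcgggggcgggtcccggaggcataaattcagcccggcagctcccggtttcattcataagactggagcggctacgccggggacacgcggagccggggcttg
Npas4 (chr19:4989922-4990221, minus strand): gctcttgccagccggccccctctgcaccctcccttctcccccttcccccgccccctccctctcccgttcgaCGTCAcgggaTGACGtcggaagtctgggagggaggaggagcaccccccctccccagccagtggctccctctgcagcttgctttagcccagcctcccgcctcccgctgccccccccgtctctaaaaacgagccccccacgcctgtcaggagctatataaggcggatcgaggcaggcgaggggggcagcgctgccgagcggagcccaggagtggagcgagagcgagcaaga
Hspa1a (chr17:34972107-34972406, minus strand): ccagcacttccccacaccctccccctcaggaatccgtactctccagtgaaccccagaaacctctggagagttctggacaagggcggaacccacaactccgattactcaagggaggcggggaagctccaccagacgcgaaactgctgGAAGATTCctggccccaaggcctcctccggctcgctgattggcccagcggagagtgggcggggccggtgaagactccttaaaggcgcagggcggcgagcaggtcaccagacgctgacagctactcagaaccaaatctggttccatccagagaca
Hspa1b (chr17:34959189-34959488, minus strand): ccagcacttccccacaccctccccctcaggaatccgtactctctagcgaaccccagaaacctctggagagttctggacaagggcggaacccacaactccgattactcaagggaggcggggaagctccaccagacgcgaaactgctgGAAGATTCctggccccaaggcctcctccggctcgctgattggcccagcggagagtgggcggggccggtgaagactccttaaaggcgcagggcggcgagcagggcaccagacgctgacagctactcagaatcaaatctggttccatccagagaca
Hsph1 (chr5:149636287-149636586, minus strand): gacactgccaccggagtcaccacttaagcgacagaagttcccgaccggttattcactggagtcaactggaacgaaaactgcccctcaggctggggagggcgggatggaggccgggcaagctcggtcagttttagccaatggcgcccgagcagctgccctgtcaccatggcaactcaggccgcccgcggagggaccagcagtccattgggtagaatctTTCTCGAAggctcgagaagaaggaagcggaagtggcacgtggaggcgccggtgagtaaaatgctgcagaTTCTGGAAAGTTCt
Ciart (chr3:95882179-95882478, minus strand): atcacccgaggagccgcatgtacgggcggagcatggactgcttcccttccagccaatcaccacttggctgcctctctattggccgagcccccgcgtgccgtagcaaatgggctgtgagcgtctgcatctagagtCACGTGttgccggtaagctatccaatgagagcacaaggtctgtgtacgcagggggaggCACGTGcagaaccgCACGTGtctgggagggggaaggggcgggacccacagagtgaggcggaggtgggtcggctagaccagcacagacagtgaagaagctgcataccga

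The Fos promoter holds cAMP response cores that begin 129 and 66 bases before the start, Npas4 at 179 and 169 and Fosb at 60, and Hspa1a and Hspa1b both hold a heat shock element 104 bases before it, in windows that differ at 4 of 300 positions. Hsph1 holds heat shock elements 33 bases before and 36 and 41 bases after the start, and Ciart E-boxes at 116, 58 and 44 bases before the start. The windows of Dnajb1, another heat shock chaperone, and of Per3 of the clock list were searched too, and held no heat shock units and no E-box, respectively. The core was present in 12 of 16 promoters of immediate early transcription factors (75.00%), against 31.1% of the 11263 matched genes tested in both regions and 20.8% of all 32851 promoters of this length. Heat shock units were present in 9 of 13 cytosolic chaperone promoters (69.2%), against 11.4% and 15.1%, and E-boxes in 5 of 17 clock gene promoters (29.4%), against 10.01% and 7.15%. Among genes with a positive region difference the core occurred in 23 of 101 promoters (22.8%) and among those with a negative one in 18 of 83 (21.7%), and the Drd1 and Rgs9 windows held none of the motifs searched. These matches are descriptions of the letters and not of binding.

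Ciart, Dbp and Per3 of the clock list fell in both regions. Ciart, a repressor within the circadian loop, held 357, 338 and 409 with PBS and 199, 209 and 218 with morphine in the accumbens and 317, 308 and 404 with PBS and 174, 222 and 221 with morphine in the VTA, and Dbp, a clock-driven transcription factor, 1525, 1214 and 1496 with PBS and 881, 842 and 879 with morphine in the accumbens and 946, 943 and 1090.1 with PBS and 608, 686 and 676 with morphine in the VTA. Both were lower in every morphine mouse in either region, with log2 changes of -0.81 ± 0.09 and -0.73 ± 0.14 for Ciart and -0.69 ± 0.08 and -0.59 ± 0.08 for Dbp. Over the 19 clock genes 2 rose and 8 fell in the accumbens, where 9.94% of all genes rose and 9.13% fell. In the VTA 2 rose and 3 fell, where the shares over all genes were 3.58% and 4.09%. Nfil3 rose in both. Nr1d1 (Rev-erbα) had the 1 called difference, with 1974, 1923 and 1942 with PBS and 1881, 1807 and 1849 with morphine in the accumbens and 1378, 1530.4 and 1523 with PBS and 1854, 1840.5 and 1829.8 with morphine in the VTA (-0.40 ± 0.07, adjusted p = 0.0431).

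Mt2, Tsc22d3 and Gjb6, on the list of glucocorticoid-responsive genes, differed between the regions. Of 24, 7 rose and 3 fell in the accumbens (median 0.04), where 9.94% of all genes rose and 9.13% fell. In the VTA 0 rose and 6 fell (median -0.20), where the shares over all genes were 3.58% and 4.09%. The 3 called region differences were positive. Mt2, a metallothionein that binds zinc, fell in both regions and more in the VTA, with 938, 732 and 1044 with PBS and 576, 625 and 758 with morphine in the accumbens and 2107, 1681 and 2277 with PBS and 764, 1021 and 1159 with morphine in the VTA (0.59 ± 0.09, adjusted p = 0.0316). Tsc22d3 (GILZ), a glucocorticoid-induced regulator of inflammation, held 1057, 1014 and 1072 with PBS and 1108, 1348 and 1386 with morphine in the accumbens and 2613, 2128 and 2679 with PBS and 1972, 1897 and 2102 with morphine in the VTA (0.59 ± 0.11, adjusted p = 0.0435), and Gjb6, a connexin of astrocytes and on their marker list, rose by 0.96 ± 0.09 in the accumbens against 0.23 ± 0.08 in the VTA (0.73 ± 0.07, adjusted p = 0.0111). Mt2 is 1 of the 4 shared genes whose effects also differed in size between regions. Myo1d, Apod and Pllp, named after their values were seen, are the others, and all 4 fell in both regions and further in the VTA (region differences 0.46, 0.49 and 0.55 in that order).

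Other large shared changes lay outside these lists. Fmo2, a flavin monooxygenase, held 153, 110.5 and 159 with PBS and 38.00, 53.9 and 53.2 with morphine in the accumbens, and in the VTA 314 ± 74.4 with PBS and 82.4 ± 12.5 with morphine (SD, n = 3 each). Its effects were -1.52 ± 0.18, adjusted p = 0.000383, and -1.90 ± 0.20, adjusted p = 0.0122 (limma). Scn4b, the β4 subunit of sodium channels, held 11279, 8936 and 12466 with PBS and 5322, 4899 and 4639 with morphine in the accumbens and 2923, 2559.9 and 2635 with PBS and 1776, 1081 and 1352 with morphine in the VTA, a fall in both although it is on the medium spiny neuron list. Xrcc3, Ggt1, Sytl5 and the interferon-induced Ifit3 fell in both regions as well. Rrad, a small GTPase, and Tm6sf2, a lipid regulator, rose by 1.16 ± 0.27 and 1.10 ± 0.25 in the accumbens and 1.40 ± 0.34 and 1.22 ± 0.21 in the VTA.

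Of the 13 mitochondrially encoded genes 5 rose and 3 fell in the accumbens, and 5 rose and 1 fell in the VTA, with medians of -0.16 and -0.13. The shares over all genes were 9.94% higher and 9.13% lower in the accumbens, and 3.58% and 4.09% in the VTA. Among the risers, mt-Co2, mt-Co3, mt-Atp6 and mt-Atp8 are mitochondrially encoded subunits of the respiratory chain and ATP synthase, and mt-Co2 held 19.5, 29.97 and 34.6 with PBS and 78.1, 231 and 236 with morphine in the accumbens and 20.3, 18.2 and 18.3 with PBS and 71.3, 255 and 297 with morphine in the VTA. The mt-Co2 level is low beside the sum of the 13 genes given below. How reads were split between these genes and nuclear copies is uncertain, so the values may not follow their mRNA. For mt-Co2, mice 2.1 and 2.2 were alike and mouse 2.0 lower in both regions. The non-coding RNAs Rny3 and Rny1 showed the same order, Rny3 with 0, 0 and 1.69 with PBS and 18.5, 115 and 149.5 with morphine in the accumbens and 0, 1.40 and 0 with PBS and 38.4, 314 and 297 with morphine in the VTA, and so did the mitochondrial pseudogene Gm10222, whose reads may be shared with its mitochondrial copy. Against that, the summed value of all 13 mitochondrially encoded genes went the other way, 777356 to 834671 with PBS and 631381 to 714157 with morphine in the accumbens and 833581 to 961330.0 with PBS and 664100.0 to 743319 with morphine in the VTA. Across genes, which are not independent, the morphine effect rose weakly with exon length in both regions (Spearman's rank correlation 0.118 in the accumbens and 0.156 in the VTA) and for the region difference it was -0.04. The part of RNA length or of library preparation in these changes was not tested.

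For the metabolic and housekeeping lists, the shares of all genes called, given above, were 9.94% higher and 9.13% lower in the accumbens and 3.58% higher and 4.09% lower in the VTA. Of the nuclear-encoded oxidative phosphorylation subunits 5 rose and 10 fell of 85 in the accumbens and 2 rose and 10 fell of 86 in the VTA, and of the cytosolic ribosomal proteins 9 rose and 7 fell of 75 and 5 rose and 4 fell of 75. Cholesterol synthesis genes rose in 2 and fell in 1 of 18 cases in the accumbens and rose in 4 of 18 in the VTA. CREB and cAMP target genes, many of them also on the lists of activity genes above, rose in 17 and fell in 6 of 35 in the accumbens, against 8 and 1 of 34 in the VTA, with negative called differences in Pde4b and Pde10a. Microglia markers fell in 7 of 12 cases in the accumbens and 6 of 12 in the VTA, none with a called difference (limma, medians -0.30 and -0.55). Markers of choroid plexus and ependyma, among which Otx2 counts, rose in 4 of 6 in the accumbens and 1 of 9 in the VTA, where all 9 effects were above 0 (median 1.09). Their sum did not overlap in either region, at 476 to 608 with PBS and 708 to 809 with morphine in the accumbens and 468 to 634 with PBS and 732 to 2749 with morphine in the VTA, where 1 morphine library stood far above the median of 745. Of the 6 region differences of this list 2 were positive and 4 negative (median -0.92), and the 1 called was that of Otx2. Of the amino acid response and osmolyte transport genes 5 rose and 3 fell of 16 in the accumbens and 1 rose and 3 fell of 15 in the VTA, and of the interferon-stimulated genes 0 rose and 1 fell of 16 and 0 rose and 2 fell of 17. Few members of 2 lists of neighbouring tissue could be tested: of hypothalamus markers 1 of 2 rose in the accumbens and 2 of 8 in the VTA, and of serotonin neuron markers 1 of 2 and 1 of 3. Their sums in the accumbens did not overlap, 68.8 to 86.1 with PBS and 143 to 203 with morphine for hypothalamus and 254 to 285 with PBS and 368 to 523 with morphine for serotonin neurons, and in the VTA they did. Over the accumbens and the VTA, markers of endothelial cells had 1 rise and 1 fall of 11, and blood markers 2 falls and 1 fall of 6. In the accumbens, 2 of 12 cortical markers fell, 1 of 7 hippocampus markers rose, and of 5 midbrain GABA and glutamate markers 1 rose and 1 fell. Limma called none of these in the VTA, where 10, 6 and 8 were tested. The midbrain list held 1 positive called region difference, that of Otx2, which is also counted under choroid plexus and ependyma and is the midbrain marker that rose. The part of these tissues in the results was not tested.

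The 6 wild-type mice, 3 given PBS and 3 given morphine at the same dose, served to ask 2 questions of the 233 genes, both set after the Vdr-/- values had been seen. The first was where these genes are expressed. Of the 107 genes with a negative region difference, 104 (97.2%) had a higher mean in the accumbens than in the VTA of wild-type mice, against 48.5% of all 15332 genes, and of the 126 with a positive one, 110 (87.3%) were higher in the VTA, against 51.5%. In most cases, then, a gene higher in the accumbens lost ground there relative to the VTA with morphine, and a gene higher in the VTA lost ground in the VTA. Exceptions included Arc (wild-type level 2.36 higher in the accumbens on the log2 scale) and Zic4 among the positive, and Nxph4, Rprm and Pnma1 among the negative genes. Of the shared genes, 125 of 298 risers (41.9%) and 88 of 207 fallers (42.5%) were higher in the accumbens.

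The second question was whether wild-type mice given morphine showed the same region difference. It had the same sign in 123 of the 126 positive genes (97.6%, against 54.5% of all genes with a positive sign) and in 105 of the 107 negative genes (98.1%, against 45.5% with a negative sign). The test within wild-type mice called 47 of the 233 genes (20.2%), against 197 of all 15332 (1.28%). Without wild-type PBS mouse 2, left out as an added check, the same-sign counts were 123 and 107 and the calls 69 of 233 (29.6%) against 332 of 15332 (2.17%). Of the 20 genes with the largest differences in Vdr-/- mice all 20 had the same sign and 8 were called in wild-type mice, among them Drd1 (-1.41, adjusted p = 0.0265, limma), Ryr1 (-1.53, 0.0117), Ret (3.68, 0.00158) and Sncg (3.45, 0.00173). Th, not called in Vdr-/- mice at 0.59 ± 0.71, had a called difference of 3.04 in wild-type mice (adjusted p = 0.00828). Wild-type effects in each region by itself were not fitted, so like signs need not reflect a like change in either region. Tested directly, the region difference of Vdr-/- mice minus that of wild-type mice passed the threshold in 0 of 15332 genes (limma, lowest adjusted p = 0.578), with 828 at an unadjusted p under 0.05. The direct test used 3 mice in each of 4 groups and was not run with other tools. The study names the calcium-enriched food for Vdr-/- mice only, so genotype and diet cannot be told apart in this test.

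**Figure D5:**
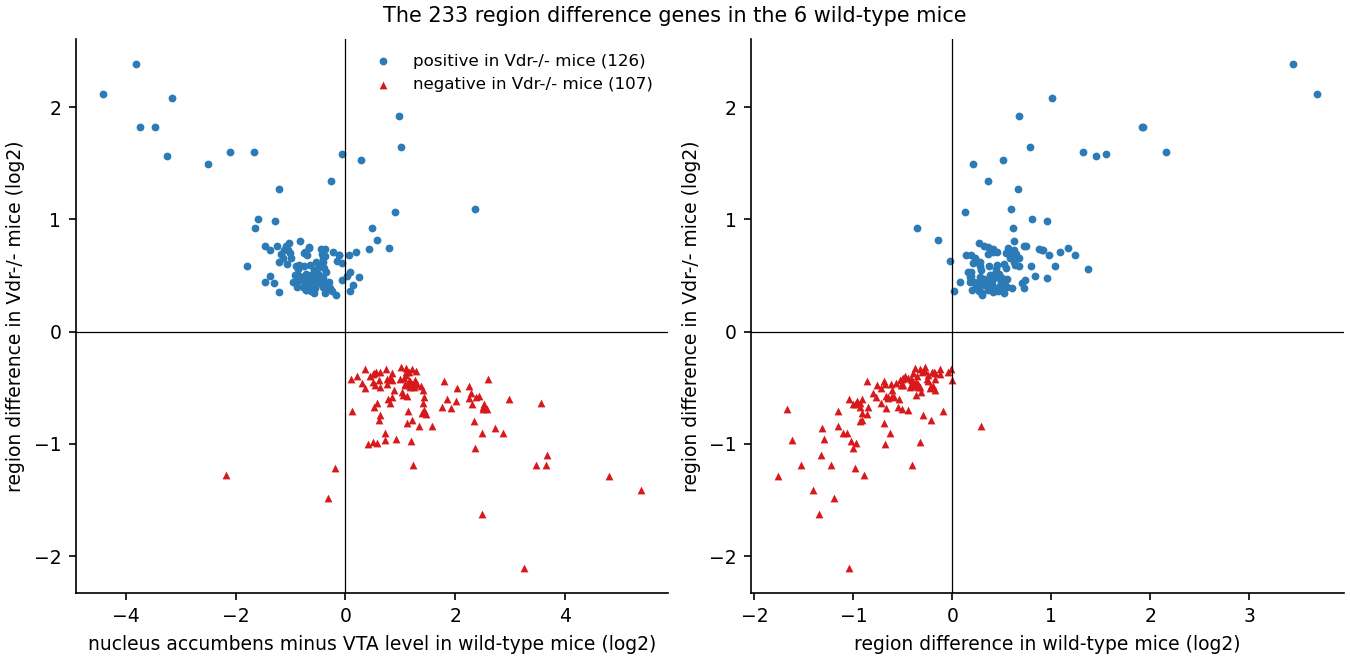
The 233 genes with a called region difference in Vdr-/- mice (y axes, log2), against their level in wild-type mice, nucleus accumbens minus VTA (left, log2), and against the region difference of wild-type mice (right, log2). Circles, positive in Vdr-/- mice, lie mostly left of 0 in the left panel (110 of 126) and triangles mostly right of it (104 of 107), while in the right panel 123 of 126 circles lie right of 0 and 105 of 107 triangles left of it.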

How the data were processed

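RNA-seq of nucleus accumbens and VTA micropunches from 6 Vdr-/- mice was analysed, with 6 wild-type mice for the closing comparison. Per the labels and the study's methods, directional libraries were sequenced on a HiSeq 2500, and the submitters' processing notes name CASAVA 1.8, Trimmomatic 0.36 and STAR 2.4.2a. The authors counted reads per GENCODE mouse gene with STAR and divided them by DESeq2 size factors, and the deposited values are that normalised signal (not whole counts). Multiplied by the size factor, 100% of values came out as whole reads (tolerance 0.01). The 6 VTA libraries, spread over 2 tables, were brought back to reads and normalised together with DESeq2 median-ratio size factors, and 3304 genes listed in 1 of the tables were set to 0 where the other left them out. Of 29461 gene identifiers 29395 were found in GENCODE M21 (GRCm38).

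Log2 of the value plus 1 was tested with limma 3.58.1 (R 4.3.3; variance trend, two-sided, Benjamini-Hochberg, threshold 0.05) for genes with a mean of at least 10: morphine against PBS in each region, and the within-mouse difference between regions. The model was also run on simulated reads, with a mouse effect shared by both regions, the same noise for every gene and changes in the accumbens only. That simulation did not copy the spread between these mice, so it does not bear on how far the calls hold. Regions were paired by the mouse number in the labels. The correlation of a mouse's deviations between its regions was -0.01 to 0.14, and 4 of 6 mice correlated best with themselves. Labels do not give litters or cages, so p-values measure the spread between these mice. No pair of libraries agreed within sampling noise (chi-square per degree of freedom 3.99 to 14.2).

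The genes named are protein-coding, have a mean of at least 50 in 1 or both regions, do not overlap between groups, and are the largest 10 region differences each way, 8 shared genes each way by the smaller of their changes, 8 opposite genes and 8 region-specific genes each way, besides members of the 34 gene lists and at most 3 genes of other types. The members and lists were chosen with earlier results of these data known. Alternatives were edgeR 4.0.16, DESeq2 1.42.0, another pseudocount, other filters, no variance trend, quantile normalisation, joint size factors, no replicate block, the 5-library VTA table and leaving out each mouse. RefSeq promoters (GRCm38.p6) matched 11263 of 15329 symbols, and Arc had no entry. Results for a few genes are not reported here.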

Additional observations from a re-analysis of the deposited data

Results flagged for a closer look

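The 39 genes below drew attention because a direct test, limma on the within-mouse difference, found their morphine effect to differ between the 2 regions of Vdr-/- mice. Groups of 3 mice are too small for a search for single outlying samples, so none was made. Among genes called in opposite directions, the log2 region difference was Gm19410 -2.10, Gpr83 -1.63, Rprm -1.48, Drd1 -1.41, Ryr1 -1.19, Rgs9 -1.10, Ngef -0.91 and Kcng4 1.82. Among genes called in the accumbens but not in the VTA, it was Gpr6 -1.28, Nxph4 -1.27, Dclk3 -1.19, Plxnd1 -1.03, Kctd8 -0.99, Rasgrp2 -0.95, Onecut2 -0.90, Rasd2 -0.90, Ano1 1.58, Otx2 1.60, A2m 1.83, Zic4 1.92, Epn3 2.08, Ret 2.11 and Sncg 2.38. Among genes called in the VTA but not in the accumbens, it was Syt10 -1.18, Fank1 -1, Crhbp -0.99, Drc1 -0.98, Calb1 -0.97, Doc2b -0.64, Lrrc7 -0.60, Cobl -0.60, Nat8f4 0.68, Acsf2 0.68, Cmtm5 0.71, Gad1 0.75, Cyp27a1 0.92, Arl4d 0.93 and Esrrb 1.60. With a call in neither region, it was Pnma1 -1.22. All 39 calls depended on which mice were included, since without mouse 2.1 or mouse 2.2 no gene was called in this test (2156 and 2133 genes at an unadjusted p under 0.05).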

How the results depend on the processing

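No effect of a named gene that had passed the threshold changed sign under the alternatives run. Of these effects, 717 kept their side of the threshold and 125 fell short of it across the alternatives other than leaving out a mouse, against 241 and 293 with 1 mouse left out. Without the variance trend limma called 1237 genes in the accumbens, 1 in the VTA and 0 region differences (2618 at an unadjusted p under 0.05), and so 0 shared, 0 opposite, 0 accumbens-specific and 0 VTA-specific genes. Without the replicate block, that is with the mouse pairing ignored, 364 region differences were called, 177 of the 233 among them, and 109 VTA-specific genes. With the deposited VTA table of 5 libraries, which lacks mouse 8, there were 758 region differences, 62 opposite, 355 accumbens-specific and 229 VTA-specific genes. DESeq2 gave 39 opposite genes and edgeR and DESeq2 269 and 259 region differences, 229 and 138 of them among the 233. Leaving out each mouse in turn gave 1566 to 3133 genes in the accumbens, 0 to 1666 in the VTA, 0 to 760 region differences, 0 to 599 shared, 0 to 77 opposite, 0 to 395 accumbens-specific and 0 to 213 VTA-specific genes, with mouse 8 the highest each time. The cause of these shifts was not tested. Of the list medians 925 moved by less than the spread and 27 by more, and 558 and 54 with 1 mouse left out. Genes under a mean of 10 in a region, Vdr among them, could not be compared at this depth.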
